A study of Mus musculus with 7 samples.

Results

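Branched-chain amino acid catabolism, the breakdown of leucine, isoleucine and valine in mitochondria, was followed through the transcripts of 10 genes in the left ventricle: *Bcat2*, *Bckdha*, *Bckdhb*, *Dbt*, *Bckdk*, *Ppm1k*, *Ivd*, *Mccc1*, *Hibch* and *Pcca*. They were named as enzymes and regulators of the pathway and were located in the count table by Ensembl identifier and mouse symbol. All 10 were found among the 20927 genes of the table, and all 10 belonged to the 13894 genes tested, which had at least 10 counts in at least 3 libraries. RNA sequencing was performed on left ventricles of C57BL/6J mice, with 1 library per heart. The WT group held 3 hearts (replicates 1, 3 and 4), and the A178D group held 4 hearts (replicates 1 to 4) of mice homozygous for a titin missense variant that places aspartate where alanine stood near the Z-disc end of the protein. The line was made with CRISPR-Cas9 in C57BL/6N embryonic stem cells that were expanded as clones, and was then backcrossed onto C57BL/6J. The labels name no treatment, and age and sex of these mice are not given in the sources used here. The comparison asked how the transcriptome of the homozygous hearts differs from that of WT hearts.

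Library totals ranged from 41102868 to 54245530 counts in WT and from 33080675 to 52345529 in A178D hearts, with the lowest total in A178D replicate 4. Levels are given as CPM, which are counts scaled to library size by the TMM method. Raw counts of the 10 genes lay between 2107 (*Bckdhb*, A178D replicate 4) and 27716 (*Ivd*, WT replicate 3), so that none of them was near the detection limit. The tissue label was checked against cell markers. The 10 cardiomyocyte markers summed to 109334 ± 2851 CPM in the 3 WT hearts and 106537 ± 3372 CPM in the 4 A178D hearts (mean ± SD), with *Myh6* as the most abundant, and edgeR's test called 0 of them (2 at an unadjusted p under 0.05, 0 called by DESeq2). Adipocyte markers, of which *Cfd* was the most abundant, summed to at most 2.19 CPM in any heart, and skeletal muscle markers, led by *Tnni2*, to at most 4.35 CPM.

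Leucine, isoleucine and valine first lose their amino group to a transaminase, and the resulting keto acids are then decarboxylated by the branched-chain keto acid dehydrogenase (BCKDH) complex on the inner side of the inner mitochondrial membrane, a step that commits them to oxidation. A dedicated kinase switches the complex off by phosphorylating its decarboxylase subunit, and a dedicated mitochondrial phosphatase switches it back on. Beyond this step the routes part, with leucine ending in acetyl-CoA and acetoacetate, and valine and part of isoleucine ending in succinyl-CoA by way of propionyl-CoA. Cardiac muscle carries out both the transamination and the oxidation, and reduced use of these amino acids is a known trait of failing hearts.

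None of the 10 transcripts passed an adjusted p under 0.05 in the quasi-likelihood test of edgeR, adjusted by Benjamini-Hochberg over all genes tested. That is 0 of 10, where 2.35% of all genes tested were called, 1.04% higher and 1.31% lower in A178D. At an unadjusted p under 0.05 there were 2 of 10 (*Ppm1k* and *Mccc1*, both lower in A178D), beside 8.81% of all genes tested in that direction and 16.7% in either. DESeq2's Wald test also called 0 of 10, where it called 5.08% of its genes. For *Ppm1k* and *Mccc1* each A178D heart was below each WT heart, and 8.52% of all genes tested showed that pattern. In either direction 16.1% of all genes tested did not overlap, so that 2 of 10 lies near the background. The log2 fold change (A178D over WT) was above 0 in 4 of the 10 and below 0 in 6, with a median of -0.019, beside a median of 0.0023 over all genes tested. The median of the 10 was -0.031 with the length and GC trend removed, and ran from -0.040 (without WT replicate 3) to -0.0042 (without WT replicate 4) with 1 heart left out. Across the 10 genes the 95% confidence intervals of the fold ran from 0.741 to 1.21 at their outermost, so that a fold outside that range was not covered by the interval of any of them.

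**Figure D1:**
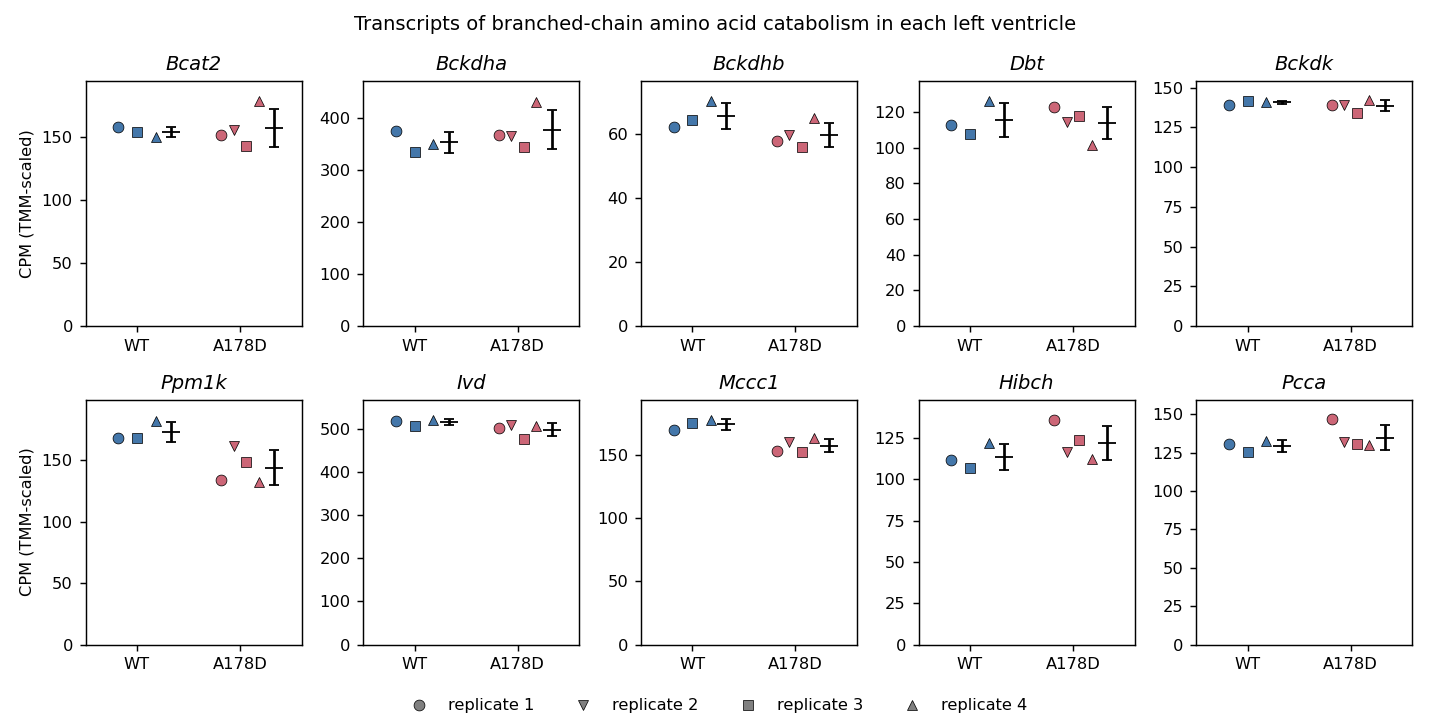
Level in CPM (vertical axis, from 0) of each of the 10 transcripts in the 3 WT (blue) and 4 A178D (red) left ventricles, with symbols for the replicate number and a bar for the group mean and SD. The A178D hearts lie below all WT hearts for *Ppm1k* and *Mccc1*, and the genotypes overlap for the other 8 genes.

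The libraries were not alike in how counts depended on transcript length. Between the 3474 tested genes with the longest transcripts (4866 nucleotides or more) and the 3474 with the shortest (up to 2263), the median log2 deviation differed by 0.19 in WT replicate 1 and by -0.32 in A178D replicate 4, and by between -0.036 and 0.049 in the other 5 libraries. The median log2 fold change was accordingly 0.078 over the short and -0.077 over the long transcripts. With each library's trend in transcript length and GC content removed, both medians came to between -0.0024 and -0.0013. For each of the 10 genes the log2 fold change with the trend removed is therefore given as well.

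*Bcat2* (ENSMUSG00000030826, chromosome 7 from 45570153 to 45589711 in GRCm38) encodes the mitochondrial transaminase that starts the pathway in heart and skeletal muscle. Its level was 158, 154 and 150.1 CPM in WT replicates 1, 3 and 4, and 152, 156, 143 and 178.3 CPM in A178D replicates 1 to 4. The A178D hearts held both the highest value, in replicate 4, and the lowest, in replicate 3, and so spanned the WT range on both sides. On the log2 scale *Bcat2* differed by 0.029 (A178D over WT, SE 0.078, 95% confidence interval -0.14 to 0.20), with an edgeR adjusted p = 0.898. This small difference changed sign to -0.037 without A178D replicate 4, and to -0.032 with the length and GC trend removed. On the opposite strand the antisense gene *0610005C13Rik* shares 622 of the 3900 exon bases of *Bcat2*. In whole ventricle, fewer cells of a type and less RNA per cell cannot be told apart, which holds for each level given here. The cytosolic transaminase *Bcat1*, by contrast with *Bcat2*, stood at 0.87 ± 0.19 CPM in the 3 WT hearts and 1.13 ± 0.34 CPM in the 4 A178D hearts (mean ± SD), and the genotypes overlapped. Per kilobase of exon the level was 39.5 ± 1.03 CPM for *Bcat2* and 0.0932 ± 0.0200 CPM for *Bcat1* in WT hearts, so that *Bcat2* was by far the more abundant transaminase transcript.

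The BCKDH complex is built on a core of the transacylase *Dbt*, to which a decarboxylase made of the *Bckdha* and *Bckdhb* subunits and the shared dihydrolipoamide dehydrogenase *Dld* are attached. *Bckdha* (ENSMUSG00000060376, chromosome 7 from 25629946 to 25658981) encodes the alpha subunit, which carries the regulatory phosphorylation sites. It measured 375, 335 and 349.7 CPM in WT replicates 1, 3 and 4, and 367, 366, 345 and 431 CPM in A178D replicates 1 to 4. A178D replicate 4 stood above every other heart, while the other 3 A178D hearts lay inside the WT range. *Bckdha* differed by 0.094 on the log2 scale (SE 0.082, 95% confidence interval -0.081 to 0.27, edgeR adjusted p = 0.600). Without A178D replicate 4 it was 0.024, and with the length and GC trend removed it was 0.023. On the opposite strand, *B3gnt8* shares 1171 of the 1899 exon bases of *Bckdha*, and whether the counting used strand is not given in the sources used here, so reads from this stretch cannot be assigned with certainty. *B3gnt8* itself was counted at 3.66 CPM in WT and 3.36 CPM in A178D hearts.

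*Bckdhb* (ENSMUSG00000032263, chromosome 9 from 83925145 to 84124240) encodes the beta subunit of the same decarboxylase. Its level was 62.4, 64.4 and 70.3 CPM in WT replicates 1, 3 and 4, and 58.0, 59.9, 56.0 and 65.1 CPM in A178D replicates 1 to 4. Of the A178D hearts, 3 lay below every WT heart and replicate 4 lay among them, so that the genotypes overlapped by that heart alone. *Bckdhb* differed by -0.14 on the log2 scale (SE 0.076, 95% confidence interval -0.30 to 0.027, edgeR adjusted p = 0.398). Leaving out single hearts moved it between -0.18 (without A178D replicate 4) and -0.086 (without WT replicate 4). With the length and GC trend removed, in a fit that called 505 of the 13894 genes tested, the difference was -0.22. *Bckdhb* was then called lower, with an edgeR adjusted p = 0.0473 within a range of 0.0473 to 0.695 over the 16 alternatives. It was the one gene of the 10 called under any of these alternatives, and under this one alone.

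*Dbt* (ENSMUSG00000000340, chromosome 3 from 116513070 to 116549981) encodes the lipoate-bearing core of the complex. It was measured at 113, 108 and 126 CPM in WT replicates 1, 3 and 4, and at 123, 114, 118 and 102 CPM in A178D replicates 1 to 4. The highest value belonged to WT replicate 4 and the lowest to A178D replicate 4, with the remaining hearts of both genotypes intermixed. For *Dbt* the log2 fold change came to -0.017 (SE 0.081, 95% confidence interval -0.19 to 0.16, edgeR adjusted p = 0.945), and it turned to 0.049 without WT replicate 4 and to 0.034 without A178D replicate 4. With the trend removed it was -0.0077. *Dld*, which also serves the pyruvate and oxoglutarate dehydrogenases, had 644 ± 68.3 CPM in the 3 WT hearts and 648 ± 37.0 CPM in the 4 A178D hearts (mean ± SD).

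Because *Bckdha* and *Bckdhb* form a single enzyme, their counts were also set against each other within each library, which needs no scaling to library size. The log2 ratio of *Bckdhb* to *Bckdha* was -2.59, -2.38 and -2.32 in WT replicates 1, 3 and 4, and -2.66, -2.61, -2.62 and -2.73 in A178D replicates 1 to 4. The A178D hearts were all lower than the WT hearts, although WT replicate 1 came within a small distance of the A178D hearts. The means differed by -0.23, a fold of 0.854, and the difference stayed between -0.31 and -0.17 when any 1 heart was left out. With the length and GC trend removed it was -0.25 and the genotypes still did not overlap. The ratio of *Dbt* to *Bckdha*, with a difference of -0.11, overlapped between the genotypes. Its difference ran from -0.17 to 0.011 with single hearts left out, and was -0.034 with the length and GC trend removed. No test was made on these ratios, and how often ratios of other gene pairs separate the genotypes was not determined.

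*Bckdk* (ENSMUSG00000030802, chromosome 7 from 127904082 to 127910221) encodes the kinase that inactivates the complex. Its level was 139, 141 and 141 CPM in WT replicates 1, 3 and 4, and 139, 139, 134 and 142 CPM in A178D replicates 1 to 4. It was the steadiest of the 10 transcripts, with a coefficient of variation of 0.817% among WT and 2.45% among A178D hearts. The A178D hearts again enclosed the WT hearts, with replicate 4 at the top and replicate 3 at the bottom. Its log2 fold change was -0.021 (SE 0.062, 95% confidence interval -0.15 to 0.11, edgeR adjusted p = 0.905), and it was -0.030 with the trend removed, -0.034 without A178D replicate 4 and -0.0056 without A178D replicate 3.

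*Ppm1k* (ENSMUSG00000037826, chromosome 6 from 57506502 to 57535468) encodes the mitochondrial phosphatase that reactivates the complex, and its transcript differed most among the 10 on the plain scale, while *Bckdhb* did with the length and GC trend removed. In WT replicates 1, 3 and 4 it measured 168, 168 and 182 CPM, and in A178D replicates 1 to 4 it measured 134, 162, 148 and 132 CPM. All A178D hearts lay below all WT hearts, with replicates 1 and 4 lowest and replicate 2 nearest to the WT hearts. The group means were 173 ± 8.08 CPM in the 3 WT hearts and 144 ± 13.9 CPM in the 4 A178D hearts (mean ± SD). This is a difference of -0.26 on the log2 scale (SE 0.080), or a fold of 0.835 with a 95% confidence interval from 0.741 to 0.940. With an edgeR adjusted p = 0.113 it missed the threshold, and it did so under each of the 16 alternatives, which gave adjusted p-values from 0.0513 (DESeq2) to 0.314 (without WT replicate 4). Leaving out single hearts moved the log2 fold change between -0.32 (without A178D replicate 2) and -0.22 (without WT replicate 4 or A178D replicate 4). The longest *Ppm1k* transcript has 5560 nucleotides and so belongs to the long class, and with the length and GC trend removed the log2 fold change was -0.18 (edgeR adjusted p = 0.175). The part of the length trend in the remaining difference was not tested.

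The balance of kinase to phosphatase was expressed as the log2 ratio of *Bckdk* to *Ppm1k* counts within each library. It was -0.27, -0.25 and -0.37 in WT replicates 1, 3 and 4, and 0.058, -0.22, -0.15 and 0.11 in A178D replicates 1 to 4. Every A178D heart had a higher ratio than every WT heart, although replicate 2 came close to the WT hearts. As *Bckdk* itself hardly differed (-0.021), this ratio restates the lower *Ppm1k* level and adds no separate result. The means differed by 0.24, a fold of 1.18, and by 0.19 to 0.30 when any 1 heart was left out. With the length and GC trend removed the ratio was -0.23, -0.27 and -0.23 in the WT hearts and 0.13, -0.22, -0.13 and -0.14 in the A178D hearts. The genotypes then still did not overlap, the difference of the means was 0.16, and A178D replicate 4 no longer stood with replicate 1. The ratio of *Bckdk* to *Bckdha*, kinase to its substrate, differed by -0.11 with overlapping genotypes. This difference ran from -0.16 to -0.059 with 1 heart left out, and was -0.056 with the trend removed.

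**Figure D2:**
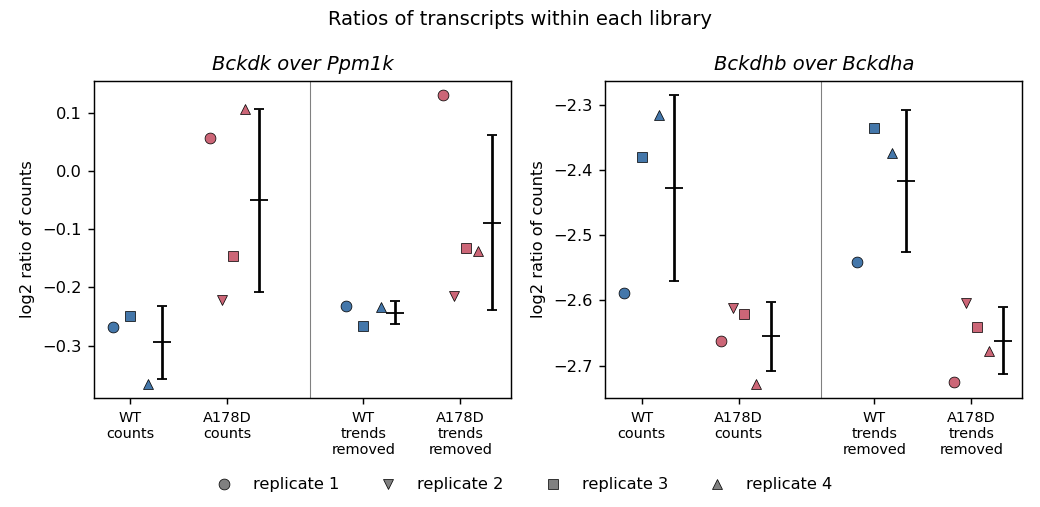
Log2 ratio of counts (vertical axis, not starting at 0) of *Bckdk* to *Ppm1k* and of *Bckdhb* to *Bckdha* in each WT (blue) and A178D (red) library, from plain counts and with the length and GC trend removed, with symbols for the replicate number and a bar for the group mean and SD. In both ratios and on both scales the WT and A178D hearts do not overlap, and A178D replicate 2 is the A178D heart nearest to the WT hearts in each. The ratios of *Bckdk* to *Bckdha* and of *Dbt* to *Bckdha*, in which the genotypes overlap on both scales, are not shown.

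After the BCKDH step the leucine branch begins with *Ivd* (ENSMUSG00000027332, chromosome 2 from 118861954 to 118882909), the isovaleryl-CoA dehydrogenase. It had the highest CPM of the 10, with 519.9, 508 and 523 CPM in WT replicates 1, 3 and 4, and 502, 511, 477 and 507 CPM in A178D replicates 1 to 4. A178D replicate 3 was the lowest heart, and A178D replicate 2 was the one A178D heart that reached into the WT range. *Ivd* differed by -0.051 on the log2 scale (SE 0.062, 95% confidence interval -0.18 to 0.082, edgeR adjusted p = 0.729), and by the same value, -0.051, with the trend removed. Leaving out single hearts moved it between -0.063 (without WT replicate 3) and -0.029 (without A178D replicate 3).

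*Mccc1* (ENSMUSG00000027709, chromosome 3 from 35959312 to 36000678) encodes the biotin-carrying alpha subunit of methylcrotonyl-CoA carboxylase, which acts next on the leucine branch. Its level was 170.0, 176 and 177.7 CPM in WT replicates 1, 3 and 4, and 154, 161, 153 and 164 CPM in A178D replicates 1 to 4. The A178D hearts all lay below the WT hearts, and both groups were tight, with SDs of 4.05 CPM (n = 3) and 5.27 CPM (n = 4). The difference was -0.15 on the log2 scale (SE 0.063, 95% confidence interval -0.28 to -0.0095), and with an edgeR adjusted p = 0.265 *Mccc1* was not called. With the length and GC trend removed the log2 fold change was -0.053 (edgeR adjusted p = 0.764), within a range of adjusted p from 0.169 to 0.802 over the alternatives. At 6751 nucleotides its longest transcript is also in the long class, and the part of the length trend in the difference was not tested. *Mccc2*, the beta subunit of the same carboxylase, gave 95.7, 92.3 and 94.6 CPM in WT replicates 1, 3 and 4, and 93.7, 94.0, 99.7 and 96.8 CPM in A178D replicates 1 to 4. The genotypes overlapped for *Mccc2* (log2 fold change 0.028, SE 0.064), which with the trend removed was at -0.026, on the same side of 0 as *Mccc1*, and whether the 2 subunits differ in their response was not tested. Of the *Mccc1* exon bases, 198 are shared with the antisense gene *Mccc1os*, 94 with the antisense gene *Gm15952* and 321 with a processed pseudogene, *B230207O21Rik*, all on the opposite strand.

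On the valine branch, *Hibch* (ENSMUSG00000041426, chromosome 1 from 52844929 to 52920986) encodes the hydrolase that frees hydroxyisobutyrate from CoA. It measured 112, 107 and 122 CPM in WT replicates 1, 3 and 4, and 136, 117, 123 and 112 CPM in A178D replicates 1 to 4. A178D replicates 1 and 3 were the highest hearts and WT replicate 3 was the lowest, but A178D replicates 2 and 4 lay within the WT range. The log2 fold change of 0.10 was the highest among the 10, with an SE of 0.080 (95% confidence interval -0.068 to 0.28) and an edgeR adjusted p = 0.554. It ranged from 0.048 without A178D replicate 1 to 0.16 without WT replicate 4, and was 0.11 with the trend removed. *Bckdha* was above *Hibch* without WT replicate 1 (0.14 against 0.094), A178D replicate 1 (0.11 against 0.048) or A178D replicate 3 (0.14 against 0.098).

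The propionyl-CoA formed from valine and isoleucine is carboxylated by an enzyme whose biotin-carrying alpha subunit is encoded by *Pcca* (ENSMUSG00000041650, chromosome 14 from 122534324 to 122891100). Its level was 131, 125 and 133 CPM in WT replicates 1, 3 and 4, and 147, 132, 130.4 and 129.8 CPM in A178D replicates 1 to 4. A178D replicate 1 stood apart from all other hearts, and the other 3 A178D hearts lay within the WT range. *Pcca* differed by 0.056 on the log2 scale (SE 0.069, 95% confidence interval -0.092 to 0.20, edgeR adjusted p = 0.732). Without A178D replicate 1 it was 0.013, and with the length and GC trend removed it was 0.026. *Pccb*, the partner subunit, had 152 ± 6.88 CPM in the 3 WT hearts and 151 ± 7.87 CPM in the 4 A178D hearts (mean ± SD). *Ggact*, on the opposite strand, shares 241 of the 5210 exon bases of *Pcca* and was counted at 12.3 CPM in WT and 13.2 CPM in A178D hearts.

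Levels of different genes were compared as CPM per kilobase of exon. *Bckdha* was the highest, with 186 ± 10.7 in the 3 WT hearts and 199 ± 19.7 in the 4 A178D hearts (mean ± SD), and *Ivd* followed with 93.9 ± 1.38 and 90.7 ± 2.80. A middle group held *Bcat2* (39.5 ± 1.03 in WT), *Bckdk* (38.1 ± 0.311), *Bckdhb* (36.4 ± 2.27) and *Dbt* (34.5 ± 2.84), in which each gene overlapped with the next over the 7 hearts. Below these came *Ppm1k*, with 28.6 ± 1.34 in WT and 23.9 ± 2.31 in A178D hearts, and *Pcca*, with 24.9 ± 0.764 and 25.8 ± 1.54. With this length the ranges of the pair overlapped, and by the group means *Ppm1k* ranked above *Pcca* in WT and below it in A178D hearts. *Hibch* (18.7 ± 1.28 in WT) and *Mccc1* (15.9 ± 0.370) were the lowest, each separate over the 7 hearts from its neighbours in the order. The subunits of each enzyme were thus listed at unlike levels, as *Bckdha* exceeded *Bckdhb*, and *Mccc2* (33.6 ± 0.608 in WT) and *Pccb* (54.9 ± 2.48) exceeded *Mccc1* and *Pcca*. This order depends on the length used. With the longest transcript in place of the joined exons, *Pcca* moved from rank 8 to rank 4 at 51.1 CPM per kilobase over the 7 hearts, while *Bckdha*, *Ivd* and *Bcat2* stayed the first 3.

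Across hearts the 10 genes did not move as a block. WT replicate 4 held the highest value for 5 of the 10 genes, A178D replicate 4 for 3 and A178D replicate 1 for 2. A178D replicate 3 held the lowest value for 5, WT replicate 3 for 3 and A178D replicate 4 for 2. A178D replicate 4 was therefore at the top for *Bcat2*, *Bckdha* and *Bckdk* and at the bottom for *Dbt* and *Ppm1k*. This heart also had the lowest library total and the strongest length trend, and the part of either in its values was not tested. The median log2 deviation of the 10 genes from their means lay between -0.076 (A178D replicate 3) and 0.047 (WT replicate 4). Together the 10 transcripts made up between 0.185% and 0.198% of all counts in each library.

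Another 17 enzymes of the pathway were compared between the genotypes in the same way. Of these, 1 was called higher and 0 lower, 11 had a log2 fold change above 0, and the median was 0.015, or from -2.41e-05 (without WT replicate 3) to 0.065 (without WT replicate 4) with 1 heart left out. The call was *Abat*, the GABA transaminase, which also takes part in the last steps of valine breakdown. It measured 42.7, 30.6 and 25.4 CPM in WT replicates 1, 3 and 4, and 52.3, 50.8, 53.0 and 51.2 CPM in A178D replicates 1 to 4. The A178D hearts were tightly grouped above all WT hearts, among which replicate 1 was the highest. *Abat* differed by 0.65 on the log2 scale (SE 0.13, edgeR adjusted p = 0.0205). *Abat* was no longer called without WT replicate 3 (edgeR adjusted p = 0.133), WT replicate 4 (0.0903), A178D replicate 1 (0.0640) or A178D replicate 3 (0.0563), and the alternatives spanned 0.000134 to 0.133. The lowest values were those of *Aldh6a1* (-0.18), the methylmalonate semialdehyde dehydrogenase, and *Acadsb* (-0.16), the dehydrogenase of the isoleucine branch, with edgeR adjusted p-values of 0.335 and 0.285. Without WT replicate 4 *Aldh6a1* was at -0.082 and *Acadsb* at -0.092, and with the length and GC trend removed they were at -0.17 and -0.087. *Bcat1* gave 0.40 at its low level (edgeR adjusted p = 0.578). The other 13 enzymes (*Dld*, *Mccc2*, *Auh*, *Acad8*, *Echs1*, *Hsd17b10*, *Acat1*, *Hadha*, *Hadhb*, *Hibadh*, *Pccb*, *Mcee* and *Mut*) lay between -0.044 (*Mut*) and 0.15 (*Mcee*).

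**Figure D3:**
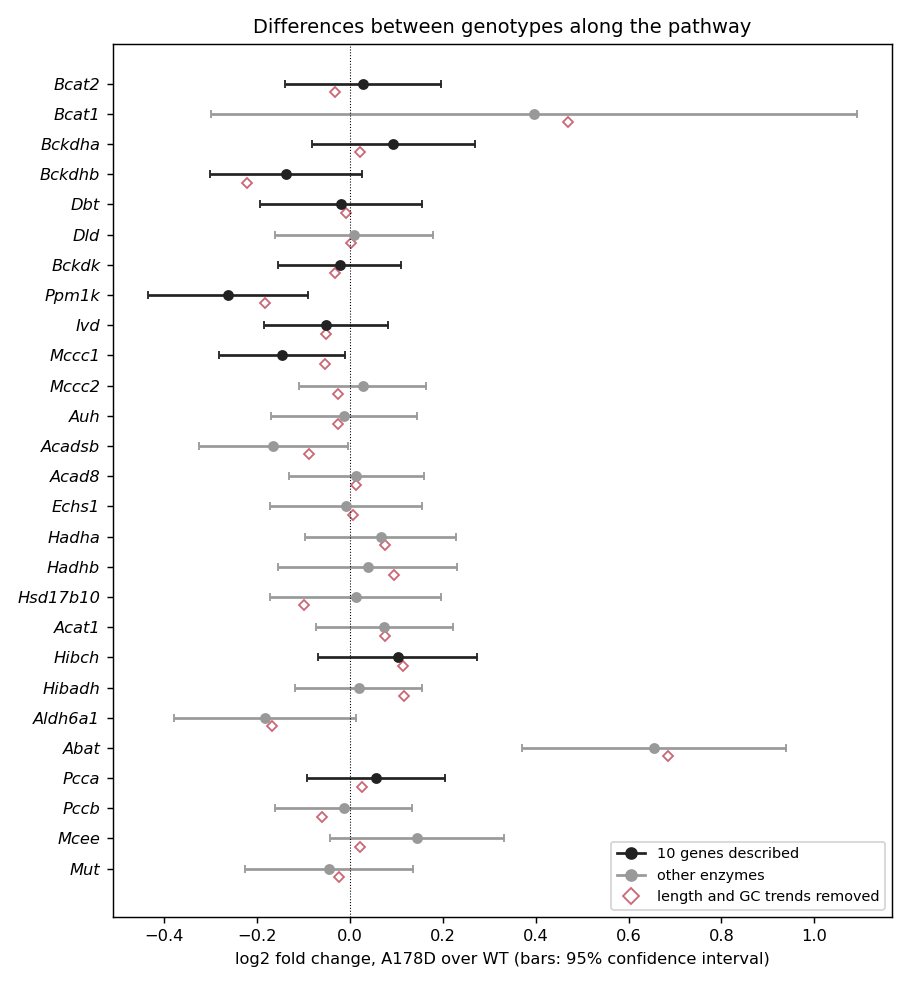
Log2 fold change of A178D over WT (horizontal axis) with its 95% confidence interval for the 10 genes described (black) and another 17 enzymes of the pathway (grey), and the fold change with the length and GC trend removed (open diamonds). *Abat* at 0.65 is the one enzyme called, and the plain intervals of *Ppm1k*, *Mccc1* and *Acadsb* lie below 0.

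Upstream of the pathway, amino acids enter cells and mitochondria through carriers, of which 7 of the 8 listed were tested, with a median log2 fold change of 0.0079 (0.052 with the length and GC trend removed). The call among them was *Slc43a2*, a carrier of large neutral amino acids that include leucine, at 1 higher and 0 lower. It measured 29.2, 27.8 and 26.5 CPM in WT replicates 1, 3 and 4, and 44.4, 48.7, 44.0 and 39.8 CPM in A178D replicates 1 to 4. All A178D hearts stood well above the WT hearts, at a log2 fold change of 0.67 (SE 0.085, edgeR adjusted p = 0.00204). *Slc43a2*, which shares 922 exon bases with the antisense gene *Gm45606*, was at 0.74 with the trend removed and was called in each of the 16 alternatives, and the lowest carrier was *Slc43a1* at -0.29 (edgeR adjusted p = 0.524).

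The cofactor genes, which supply lipoate, biotin, cobalamin, thiamine pyrophosphate and electron transfer to these enzymes, gave 0 calls among 13 in edgeR's test and 0 in DESeq2, with 1 at an unadjusted p under 0.05. They ran from -0.093 (*Mmab*, edgeR adjusted p = 0.574) to 0.34 (*Lipt2*, 0.191), with a median of 0.052, which turned to -0.011 with the length and GC trend removed.

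Among 7 transcription factors and coactivators known to act on mitochondrial or lipid metabolism, 1 was called higher and 1 lower. *Ppara*, a nuclear receptor of fatty acid oxidation, measured 148, 136 and 152 CPM in WT replicates 1, 3 and 4, and 105, 117, 115 and 109 CPM in A178D replicates 1 to 4. *Ppara* differed by -0.38 on the log2 scale (SE 0.070, edgeR adjusted p = 0.0144), and the call was lost without WT replicate 4 (edgeR adjusted p = 0.0772) or A178D replicate 1 (0.0566), with 7.14e-05 to 0.0772 spanned by the alternatives. *Srebf1*, a factor of lipid synthesis, was higher at 0.56 (SE 0.088, edgeR adjusted p = 0.00601), and it was called in each of the 16 alternatives. *Klf15*, known as an inducer of branched-chain amino acid breakdown in muscle and heart, had the lowest log2 fold change of the list. It measured 65.7, 101 and 92.0 CPM in WT replicates 1, 3 and 4, and 56.7, 59.4, 59.5 and 69.8 CPM in A178D replicates 1 to 4. WT replicate 1 lay below A178D replicate 4, so that the genotypes overlapped. The difference came to -0.49 on the log2 scale (SE 0.12, edgeR adjusted p = 0.0516). *Klf15* passed the threshold in 7 of the 16 alternatives, among them DESeq2 (adjusted p = 0.00428), edgeR without a count filter (0.0192), with the length and GC trend removed (0.0221, at a log2 fold change of -0.53), and without WT replicate 1 (0.00170) or A178D replicate 4 (0.0311). It reached up to 0.255 without WT replicate 3.

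Of 11 genes listed as leucine-sensing, which here include leucyl-tRNA synthetases and genes of mTOR signalling, 0 were called higher and 1 lower. Their median was 0.0084, and 0.054 with the length and GC trend removed. *Sesn1*, which encodes a sestrin of the family that binds leucine, stood at 176 ± 26.3 CPM in the 3 WT hearts and 132 ± 8.44 CPM in the 4 A178D hearts (mean ± SD). *Sesn1* differed by -0.41 on the log2 scale (SE 0.094, edgeR adjusted p = 0.0344), and it was called in 2 of the 7 fits that left out 1 heart, those without WT replicate 1 and without A178D replicate 4. Over the alternatives its adjusted p ran from 0.00182 (DESeq2) to 0.171 (edgeR without WT replicate 3). The extremes of the list were *Lars2*, the mitochondrial leucyl-tRNA synthetase, at -0.57 (edgeR adjusted p = 0.146) and *Sesn2* at 0.30 (0.337). *Lars2* stood at 204 CPM in WT replicate 4, beside 121 and 89.0 CPM in WT replicates 1 and 3 and 85.8 to 98.3 CPM in the A178D hearts. It moved to -0.18 without WT replicate 4, where *Sesn1* was lower at -0.32, and to -0.81 without WT replicate 3, where it was called (edgeR adjusted p = 0.0499).

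The pyruvate and oxoglutarate dehydrogenase complexes share the architecture of BCKDH and the *Dld* subunit. Among 14 of their subunits, kinases and phosphatases, 0 were called by edgeR and 1 by DESeq2 (*Ogdh*, named after its values were seen), with 4 at an unadjusted p under 0.05 and a median log2 fold change of -0.019. With the length and GC trend removed their median lay between -0.0015 and 0.010. The highest was the kinase *Pdk4* at 0.82 (edgeR adjusted p = 0.183), which ranged from 136 to 497 CPM among the WT hearts. It moved to 0.45 without WT replicate 3 and 1.261 without WT replicate 4. The lowest was *Pdk3* at -0.27 (edgeR adjusted p = 0.648), which moved to -0.45 without WT replicate 1 and -0.10 without A178D replicate 2. Among 14 subunits of the tricarboxylic acid cycle, where the carbon of the pathway is oxidised, edgeR and DESeq2 called 0 and none had an unadjusted p under 0.05. Their log2 fold changes ran from -0.12 (*Suclg2*) to 0.11 (*Mdh2*), with a median of -0.010, close to that of the 10 genes described. With the length and GC trend removed the median was -0.038, beside -0.031 for the 10 genes, and *Mdh2* was at 0.031.

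Circadian clock genes and markers of other cells were compared as well. Of 15 clock genes, edgeR's test called 1 higher, *Arntl* (log2 fold change 1.77), and 5 lower, *Per2* (-0.88), *Cry1* (-0.51), *Per3* (-0.47), *Hlf* (-0.42) and *Tef* (-0.39), and between 0 (without WT replicate 3) and 8 (without WT replicate 1) were called with 1 heart left out. Of 7 markers of smooth muscle and pericytes, 4 were called lower (*Acta2* and *Tagln*, in 7 of 7 fits without a single heart, *Myh11* in 5 and *Cnn1* in 1). Their sum, with *Acta2* the most abundant, was 755, 760.2 and 704 CPM in WT replicates 1, 3 and 4 and 480.4, 553, 578 and 523 CPM in A178D replicates 1 to 4. Of 7 fibroblast markers, 1 was called higher (*Col3a1*, in 3 of those 7 fits), and the sum, with *Dcn* the most abundant, was 1130.2, 1161 and 1050.4 CPM in the WT hearts and 1365, 1289, 1236 and 1254 CPM in the A178D hearts. Within the sum *Dcn* had a mean of 579 CPM in WT and 580 CPM in A178D hearts, *Col3a1* had 201 and 309 CPM, and *Pdgfra* was lowest at a log2 fold change of -0.060. DESeq2 called 2 of the 7 fibroblast markers, 6 of the 7 smooth muscle and pericyte markers and 7 of the 15 clock genes. With the length and GC trend removed, edgeR also called *Col1a1* (adjusted p = 0.0199) and *Col1a2* (0.0423). Of 4 atrial markers, 2 were tested and *Nppa*, the most abundant and a gene that ventricular muscle can also express, was called higher (in 4 of those 7 fits), with sums of 251, 189 and 111 CPM in the WT hearts and 533, 367, 324 and 591 CPM in the A178D hearts. *Nppa* shares 532 of its 865 exon bases with the antisense gene *Gm13054*, and *Tagln* shares 1241 of its 1988 with the antisense gene *Gm48529*. Endothelial (led by *Kdr*), macrophage (*Csf1r*) and erythrocyte markers (*Hbb-bs*) gave 0 calls in edgeR's test, with 4 macrophage markers at an unadjusted p under 0.05 and 1 called by DESeq2 (*C1qb*, named after its values were seen). The time of day at which the hearts were collected is not given in the sources used here. The part of the clock genes and of these cell types in the values of *Ppm1k*, *Mccc1*, *Abat*, *Slc43a2* and the regulators was not tested.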

How the data were processed

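RNA of 7 left ventricles (3 WT, 4 homozygous A178D) was profiled with stranded poly(A) libraries read from both ends, and the authors deposited raw counts per gene, without normalization, for the 7 libraries. The submitters' processing notes name bcl2fastq 2.18.0.12, HISAT2 2.1.0, SAMtools 1.6, DESeq2 1.26.0 and the build GRCm38. The program that counted reads, its use of strand and its gene annotation are not given in the sources used here. A further table of counts scaled with DESeq2 size factors was not used here.

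Ensembl identifiers were matched to GENCODE M21 (GRCm38) for names, positions and lengths, and 268 of the 21257 entries had no match. Entries that repeat the counts of another entry in each library were reduced to 1, which left 20927 (330 removed). Of counts from 1 to 20, between 17.6 and 20.3% were odd, depending on the library. The cause was not tested, and counts of any size may stand for fewer molecules than their number. Genes that reached 10 counts in 3 or more libraries were tested in R 4.3.3 with edgeR 4.0.16 (TMM, quasi-likelihood test, Benjamini-Hochberg adjustment over the 13894 genes, called at an adjusted p under 0.05). Error was carried by the spread between hearts, with a biological coefficient of variation of 0.111. Alternatives were DESeq2 1.42.0, limma-voom 3.58.1, DESeq2 size factors in edgeR, other count filters, the table with all its entries, an adjusted p under 0.01, a block for the replicate number, offsets that remove each library's trend in transcript length and GC content (mgcv 1.9.3), leaving out each heart, and levels by longest transcript. The ratios with the trend removed were added after seeing the data. The test was checked on simulated data with known changes. These were larger than any difference among the 10 genes and carried no length trend, so differences as small as theirs were not checked.

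The members and the other gene lists were chosen with earlier results of these data known. From the list of further enzymes and from that of cofactor genes, 1 gene each is not reported here, and their counts and medians are without it. Genes named are the 10 members and the 17 further enzymes of the pathway, in each other list the genes called and the highest and lowest log2 fold change, and in marker lists the most abundant gene. *Ppargc1a*, *Ogdh*, *C1qb*, *Col1a1* and *Col1a2*, and antisense or overlapping genes, were named after their values were seen.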

Additional observations from a re-analysis of the deposited data

Results flagged for a closer look

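In groups of 4 hearts, a value was singled out when its gap to the nearest other heart took up more of the group's range than Dixon's critical value allows. Of the 41 groups of values looked at, 2 held such a heart, and chance gives about 1 in 20.

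*Pcca* in A178D replicate 1 was at 146.6 CPM, where the other 3 A178D hearts lay between 129.8 and 131.8 CPM, a gap of 0.877 of the range. The log2 ratio of *Bckdk* to *Bckdha* in A178D replicate 4 was -1.60, where the other 3 A178D hearts lay between -1.40 and -1.36, a gap of 0.840 of the range. With the length and GC trend removed this heart was at -1.46 and the other 3 lay between -1.41 and -1.39. Its gap then took up less of the range, and the heart did not stand apart as it did on plain counts.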

How the results depend on the processing

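The 10 genes kept their direction and remained uncalled under most alternatives. Among 160 values of the 10 genes over 16 alternatives, 154 kept direction and side of the threshold, 5 changed sign and 1 passed the threshold. With the length and GC trend removed, *Bcat2* was -0.032, and *Bckdhb* was called at -0.22 (edgeR adjusted p = 0.0473), so that 1 of the 10 was called. That fit called 505 of the 13894 genes tested. With single hearts left out, *Bcat2* ranged from -0.037 to 0.071 and *Dbt* from -0.066 to 0.049. DESeq2 called 289 genes higher and 377 lower, edgeR with the trend removed 228 and 277, and edgeR at an adjusted p under 0.01 called 24 and 40. With single hearts left out, edgeR called 22 to 215 genes higher and 31 to 238 lower.

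Of the other lists, the median of the carriers was 0.052 and that of the cofactor genes -0.011 with the trend removed. DESeq2 called 4 of the 7 regulators (*Klf15* and *Ppargc1a* also) and 1 gene of the sister complexes, edgeR without a count filter called 4 regulators, and edgeR with the trend removed called 1 gene of the sister complexes (*Ogdh*). With single hearts left out, 0 to 1 of the 17 other enzymes, 1 to 4 regulators, 0 to 1 leucine-sensing genes and 0 to 8 clock genes were called, and the medians ran from 0.0095 to 0.060 for carriers and from 0.016 to 0.065 for cofactor genes. By longest transcript, the level in CPM per kilobase was 74.9 for *Bcat2*, 42.2 for *Bckdhb*, 40.9 for *Bckdk*, 138 for *Ivd*, 24.4 for *Mccc1*, 31.4 for *Hibch* and 51.1 for *Pcca*, each higher because the length is shorter.

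WT and A178D hearts share the replicate numbers 1, 3 and 4. Deviations of same-numbered hearts correlated at 0.0031, -0.040 and -0.042, and 0 of 3 WT hearts correlated best with its own number, so the numbers were not taken to pair the hearts. With the replicate number as a block, 124 genes were called higher and 147 lower, 221 of them shared with the fit without it, and *Ppm1k* was at -0.32 (edgeR adjusted p = 0.0873), and *Klf15* was called (0.0348). The block gave 0 calls among the leucine-sensing genes and a median of 0.026 for cofactor genes. Together with the length and GC trend removed, it gave -0.040 for *Bcat2* and medians of 0.050 for carriers, -0.0090 for cofactor genes and 0.086 for leucine-sensing genes. Apart from what the length used or the smaller number of hearts brings by construction, the cause of these changes was not tested. With 3 and 4 hearts the median standard error of the 10 log2 fold changes was 0.077, which limits the differences that could be called.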
